A study of Homo sapiens with 32 samples.

Results

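DDIT4, SESN1, SESN2, SESN3 and EIF4EBP1 encode proteins that restrain the growth kinase complex mTORC1 or act where its signal reaches translation. Their mRNAs were followed by SLAM-seq through endoplasmic reticulum (ER) stress and through auxin treatment of cells with or without a degron on IGF2BP3, an RNA-binding protein. The 5 genes were taken by symbol from 14427 genes with at least 1 read, and they were chosen with earlier results of these data known. Each was read from the matching RefSeq transcript whose summed reads in the 32 libraries were highest. All 5 passed the filter on low counts for total reads, and all but SESN3 passed it for labelled reads.

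mTORC1 drives protein synthesis and cell growth when nutrients and energy suffice. DDIT4, also called REDD1, acts through the TSC complex, which switches off the mTORC1 activator Rheb. The sestrins bind the GATOR2 complex and so keep Rag GTPases from bringing mTORC1 to the lysosome, and SESN2 and SESN1 release GATOR2 when leucine is present. EIF4EBP1 encodes 4E-BP1, an mTORC1 substrate that, while unphosphorylated, holds the cap-binding protein eIF4E and blocks cap-dependent translation. DDIT4, SESN2 and EIF4EBP1 are known as targets of ATF4, the transcription factor of the integrated stress response, SESN1 as a p53 target and SESN3 as a FOXO target.

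HCT116 is a human colorectal carcinoma line, used here with a doxycycline-inducible OsTIR1, the plant receptor that sends degron-tagged proteins to the proteasome when auxin is present. The tagged line also carried the mini degron mAID on both alleles of IGF2BP3, and the parental line did not. The 8 groups, each of 4 libraries, were tagged stressed auxin-treated, tagged stressed vehicle-treated, tagged unstressed auxin-treated and tagged unstressed vehicle-treated cells, and the same 4 groups of parental cells. Doxycycline (200 ng/mL for 24 h) and s4U (250 µM for 2 h) went into all wells, controls included. Stressed wells received 5 µg/mL tunicamycin, a blocker of N-glycosylation, for 5 h and unstressed wells DMSO. Auxin-treated wells received 500 µM indole-3-acetic acid for 9 h and the others its vehicle. s4U, a uridine analogue, is read as a T-to-C conversion after alkylation. Reads with conversions are called labelled reads here and taken to come from RNA made during the label. As all wells received s4U, conversions that arise without it could not be measured. An unlabelled read is older or new RNA without a converted base. The labels give each replicate as 1 well of a 24-well plate, so p-values measure the spread between wells.

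Reads in named genes ranged from 0.987 M to 6.98 M per library (median 3.54 M), and labelled reads made up 8.88% to 13.5% of them. The smallest library, replicate 1 of the parental stressed auxin-treated cells, stood apart with the fewest detected genes (11368, against up to 12926) and 15.1 covered T positions per read, against up to 24.1, so the main values of its group are also given without it. The stress label was checked with DDIT3, which encodes CHOP: it stood at 495.9 to 970.7 CPM in stressed libraries and 14.8 to 29.6 CPM in unstressed libraries. CPM are counts scaled to the library size after TMM. The epithelial markers EPCAM, KRT8, KRT18, KRT19, CDX2 and CDH1 were read in all 32 libraries, while VIL1 was not among the genes tested. CDH1 varied, from 2.54 to 63.4 CPM. It was higher in tagged than in parental unstressed vehicle-treated cells (1.43 ± 0.32 on the log2 scale, edgeR adjusted p 0.044). That parental group was low, at 10.6 ± 5.74 CPM (SD, n = 4), against 30.4 ± 2.13 in parental stressed vehicle-treated cells. Parental unstressed auxin-treated cells stood at 24.7 ± 4.43 CPM, and CDH1 passed as higher with auxin there (1.18 ± 0.32, edgeR adjusted p 0.0256). Of the 4 markers of other cells (PTPRC, PECAM1, COL1A1 and COL1A2) only COL1A1 passed the filter. PECAM1, an endothelial marker, was at 0 in 29 of 32 libraries, and COL1A1, a fibroblast collagen, stood at 18.4 to 59.8 CPM in all 32. COL1A1 was higher with tunicamycin in parental cells with auxin (0.73 ± 0.17 on the log2 scale, edgeR adjusted p 0.00575) and did not pass in the other stress comparisons (0.05 to 0.50). Without the smallest library it passed as higher in tagged cells with auxin (0.48) and with vehicle (0.51) and in parental cells with auxin (0.57). In parental cells with vehicle it did not (0.06). Its part in the results was not tested. IGF2BP3 mRNA stood between 129.7 and 235.3 CPM over all libraries. Auxin acts on the tagged protein, so this mRNA is no check of its removal.

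In the RefSeq table of GRCh38.p14, the same build as the deposited hg38 counts, DDIT4 lies at chr10:72273924-72276036 and was counted as transcript NM_019058.2 over 851 bases of its 3′ part with 223 T positions. SESN2 lies at chr1:28259518-28282491 (NM_031459.4, 1689 bases, 408 T positions). SESN1 lies at chr6:108984309-109094846 (NM_001199933.1, 1107 bases, 374 T positions), and SESN3 at chr11:95165513-95232475 (NM_001271594.1, 7742 bases, 2684 T positions). EIF4EBP1 is placed with its values. The counts of SESN1 were the same for 3 of its transcripts and those of SESN3 for 2, so no isoform can be told apart there.

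DDIT4 and SESN2 were the genes whose mRNA rose with tunicamycin in every comparison below, so their start regions are shown, from 250 bases before to 50 bases after the gene's start, on the + strand, from RefSeq (GRCh38.p14). Capitals mark matches to 9 motifs searched on both strands. The DDIT4 window is chr10:72273674-72273973 and the SESN2 window chr1:28259268-28259567.
DDIT4: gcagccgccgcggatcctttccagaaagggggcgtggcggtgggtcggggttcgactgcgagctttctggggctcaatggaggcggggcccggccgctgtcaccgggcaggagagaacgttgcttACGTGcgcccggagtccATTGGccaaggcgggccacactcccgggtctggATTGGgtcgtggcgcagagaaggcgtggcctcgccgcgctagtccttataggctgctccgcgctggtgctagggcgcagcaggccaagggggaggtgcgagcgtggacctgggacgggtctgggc
SESN2: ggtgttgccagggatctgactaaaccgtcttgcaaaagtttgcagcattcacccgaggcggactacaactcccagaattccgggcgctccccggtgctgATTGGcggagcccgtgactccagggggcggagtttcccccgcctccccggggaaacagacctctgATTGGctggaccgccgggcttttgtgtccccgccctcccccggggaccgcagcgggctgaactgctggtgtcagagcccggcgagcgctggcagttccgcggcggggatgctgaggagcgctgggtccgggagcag

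ATTGG is CCAAT, the box bound by NF-Y, on the other strand. It begins 108 and 75 bases before the start of DDIT4 and 151 and 86 bases before that of SESN2. Of 35116 windows of the same 300-base length, 34.614% held CCAAT and 10.753% held at least 2, so the box is common. ACGTG, the core of the hypoxia response element, begins 125 bases before the start of DDIT4 and was in 21.409% of windows. The full ER stress response element (CCAAT, 9 bases, CCACG) was in 0.077% of windows, the ATF4-type element TGATGNAA in 3.617%, the cyclic AMP element TGACGTCA in 1.848% and the XBP1 core TGACGTG in 1.971%. None of these 4 was found in the 6 windows of DDIT4, SESN1, SESN2 and SESN3, which include 3 start sites of SESN1. Nor were the FOXO site TGTTTAC (3.423% of windows) and the E-box CACGTG (7.256%), while the antioxidant element TGACNNNGC (13.347%) was in 1 SESN1 window. CCAAT was in 4 of the 6 windows. CCAAT is part of the ER stress element as ACGTG is of the XBP1 core and the E-box, and a match in letters is not a binding site.

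DDIT4, the brake that acts through the TSC complex, was higher with tunicamycin in both lines, with and without auxin. In tagged auxin-treated cells it had 112.2, 159.7, 132.8 and 185.7 CPM stressed, against 8.59, 10.05, 7.44 and 10.7 CPM unstressed. In tagged vehicle-treated cells it had 119.3, 141.5, 101.3 and 142.6 CPM stressed, against 4.51, 10.8, 11.01 and 9.46 CPM unstressed. No stressed library of the tagged line overlapped an unstressed one. In parental auxin-treated cells DDIT4 had 49.6, 170.1, 141.2 and 197.6 CPM stressed, against 9.00, 5.77, 10.9 and 9.97 CPM unstressed. In parental vehicle-treated cells it had 163.4, 192.7, 135.5 and 187.7 CPM stressed, against 7.32, 6.54, 9.70 and 7.30 CPM unstressed. The parental groups did not overlap either, and the lowest stressed value, 49.6 CPM, was that of the smallest library.

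In log2 terms, with the standard error of the fit, DDIT4 rose by 3.99 ± 0.28 (edgeR adjusted p 1.06e-11) in tagged cells with auxin and 3.798 ± 0.29 (edgeR adjusted p 4.43e-11) with vehicle. It rose by 3.99 ± 0.28 (edgeR adjusted p 9.13e-12) in parental cells with auxin and 4.45 ± 0.28 (edgeR adjusted p 1.02e-12) with vehicle. These are 15.9-fold, 13.9-fold, 15.9-fold and 21.8-fold. Without the smallest library the parental auxin value was 4.22 ± 0.22 (edgeR adjusted p 1.52e-17). By p, DDIT4 ranked between place 10 and 12 of 11186 genes in the 4 comparisons. Ordered by group mean, the stressed groups ran 169.8 ± 26.2 CPM (SD, n = 4) in parental vehicle-treated, 147.6 ± 31.97 in tagged auxin-treated, 139.6 ± 64.3 in parental auxin-treated and 126.2 ± 19.8 in tagged vehicle-treated cells. The unstressed groups lay between 9.20 ± 1.48 CPM in tagged auxin-treated and 7.71 ± 1.37 CPM in parental vehicle-treated cells. Neighbours in this order differed by less than the larger of their SDs, except at the step between stressed and unstressed cells. The parental auxin-treated stressed mean was 169.6 ± 28.2 CPM (SD, n = 3) without the smallest library. In these bulk samples a change in a few cells and a change in every cell cannot be told apart.

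SESN2, the leucine-sensing sestrin, rose in the same 4 comparisons. In tagged auxin-treated cells it had 295.1, 343.5, 281.9 and 327.6 CPM stressed, against 42.9, 30.1, 27.8 and 26.7 CPM unstressed. In tagged vehicle-treated cells it had 347.1, 315.3, 321.8 and 356.2 CPM stressed, against 41.4, 43.8, 32.1 and 38.6 CPM unstressed. The stressed values lay close together, within 282 to 357 CPM, and far above every unstressed value. In parental auxin-treated cells it had 553.1, 356.5, 341.1 and 306.5 CPM stressed, against 33.7, 41.04, 33.5 and 35.2 CPM unstressed. In parental vehicle-treated cells it had 280.4, 252.4, 280.9 and 286.1 CPM stressed, against 38.5, 37.8, 32.2 and 36.2 CPM unstressed. The groups did not overlap, and the highest value, 553.1 CPM, came from the smallest library.

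The log2 rise of SESN2 was 3.29 ± 0.15 (edgeR adjusted p 2.88e-16) in tagged cells with auxin and 3.10 ± 0.15 (edgeR adjusted p 9.03e-16) with vehicle, or 9.81-fold and 8.60-fold. It was 3.43 ± 0.15 (edgeR adjusted p 9.14e-17) in parental cells with auxin and 2.93 ± 0.15 (edgeR adjusted p 3.59e-15) with vehicle, or 10.8-fold and 7.61-fold. Without the smallest library the parental auxin value was 3.23 ± 0.11 (edgeR adjusted p 2.85e-24). SESN2 ranked at place 4 or 5 by p of all genes tested. By group mean the stressed groups ran 389.3 ± 111.2 CPM (SD, n = 4) in parental auxin-treated, 335.1 ± 19.7 in tagged vehicle-treated, 312.0 ± 28.4 in tagged auxin-treated and 274.9 ± 15.3 in parental vehicle-treated cells. The unstressed groups lay between 38.96 ± 5.07 and 31.9 ± 7.51 CPM, in tagged cells with vehicle and in tagged cells with auxin. The parental auxin-treated stressed mean was 334.7 ± 25.6 CPM (SD, n = 3) without the smallest library. The last step among the stressed groups was larger than either group's SD, and the steps among unstressed groups were not.

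SESN1, the sestrin known as a p53 target, moved the other way in 3 of the 4 comparisons, on few reads (2 to 63 per library). In tagged auxin-treated cells it had 9.64, 6.92, 6.43 and 6.32 CPM stressed, against 11.7, 11.3, 16.5 and 15.4 CPM unstressed. In tagged vehicle-treated cells it had 5.51, 5.07, 4.55 and 5.18 CPM stressed, against 10.5, 9.81, 14.9 and 11.6 CPM unstressed. Neither pair of groups overlapped. In parental auxin-treated cells it had 2.54, 5.48, 6.93 and 7.26 CPM stressed, against 11.5, 11.2, 13.95 and 11.6 CPM unstressed, again without overlap. In parental vehicle-treated cells it had 6.19, 11.3, 9.71 and 7.38 CPM stressed, against 7.95, 8.03, 13.2 and 10.7 CPM unstressed, and there the groups overlapped.

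The log2 change of SESN1 was -0.93 ± 0.22 (edgeR adjusted p 0.00962) in tagged cells with auxin, -1.20 ± 0.24 (edgeR adjusted p 0.00123) in tagged cells with vehicle and -0.97 ± 0.24 (edgeR adjusted p 0.00692) in parental cells with auxin. The last was -0.87 ± 0.25 (edgeR adjusted p 0.0165) without the smallest library, in which SESN1 had 2 reads, and its call was lost when the fit held only the compared libraries (-0.98, edgeR adjusted p 0.161). In parental vehicle-treated cells it was -0.22 ± 0.22 (edgeR adjusted p 0.517). The difference of this stress effect between the lines, with vehicle, was -0.98 ± 0.32 (tagged minus parental) and did not pass (edgeR adjusted p 0.649). Group means ran 13.7 ± 2.62 CPM (SD, n = 4) in tagged and 12.1 ± 1.27 in parental unstressed auxin-treated cells, then 11.7 ± 2.25 in tagged and 9.98 ± 2.52 in parental unstressed vehicle-treated cells. The stressed groups followed at 8.64 ± 2.28 CPM in parental vehicle-treated, 7.33 ± 1.56 in tagged auxin-treated, 5.55 ± 2.15 in parental auxin-treated and 5.08 ± 0.400 in tagged vehicle-treated cells. Every stressed mean was thus under every unstressed one, while each step to the next group was smaller than the larger SD of the pair. The parental auxin-treated stressed mean was 6.55 ± 0.948 CPM (SD, n = 3) without the smallest library.

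SESN3, the sestrin known as a FOXO target, was scarce, with 0 to 27 reads per library and 342 in all. It had 1.16, 2.11, 2.14 and 2.93 CPM in tagged stressed auxin-treated cells, against 6.53, 4.17, 1.62 and 5.23 CPM unstressed, the pair with the largest log2 change, -1.01 ± 0.47 (edgeR adjusted p 0.304). The other log2 changes with stress were -0.60 in tagged vehicle-treated, -0.75 in parental auxin-treated and -0.77 in parental vehicle-treated cells, with edgeR adjusted p of 0.242 to 0.814 (parental auxin -0.60 ± 0.46 without the smallest library). All groups overlapped. Its group means ran from 4.57 ± 2.03 CPM (SD, n = 4) in parental unstressed auxin-treated cells down to 1.42 ± 0.791 CPM in tagged stressed vehicle-treated cells, and a change was not detectable at this depth.

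EIF4EBP1, which encodes the translation brake 4E-BP1, lies at chr8:38030534-38060365 and was counted as NM_004095.3 over 430 bases with 75 T positions. Its total reads passed in 1 of the 4 comparisons. It had 67.1, 42.1, 57.5 and 52.3 CPM in tagged stressed auxin-treated cells, against 41.9, 35.5, 33.96 and 36.3 CPM unstressed, which did not overlap but did not pass (0.57 ± 0.27 on the log2 scale, edgeR adjusted p 0.340). It passed there in 3 alternative fits (log2 0.47 to 0.57), of which 1 left out the smallest library (0.56, edgeR adjusted p 0.00513). In parental auxin-treated cells it had 178.0, 46.8, 51.9 and 40.8 CPM stressed, against 37.6, 35.3, 32.98 and 42.4 CPM unstressed. This pair passed at 0.95 ± 0.27 (edgeR adjusted p 0.0259), but the value of 178.0 CPM came from the smallest library. Without that library the change was 0.33 ± 0.15 (edgeR adjusted p 0.195). The vehicle comparisons gave 0.27 ± 0.27 (edgeR adjusted p 0.843) in tagged and 0.07 ± 0.26 (edgeR adjusted p 0.890) in parental cells. By group mean the stressed groups stood at 79.4 ± 65.9 CPM (SD, n = 4) in parental auxin-treated, 54.8 ± 10.4 in tagged auxin-treated, 53.03 ± 7.35 in tagged vehicle-treated and 48.3 ± 7.23 in parental vehicle-treated cells. The unstressed groups stood at 46.1 ± 4.69 CPM in parental and 44.1 ± 6.41 in tagged vehicle-treated cells, and at 37.05 ± 4.01 in parental and 36.9 ± 3.47 in tagged auxin-treated cells. Only the step between the vehicle-treated and the auxin-treated unstressed groups was larger than both SDs of its pair. The parental auxin-treated stressed mean was 46.5 ± 5.55 CPM (SD, n = 3) without the smallest library.

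**Figure D1:**
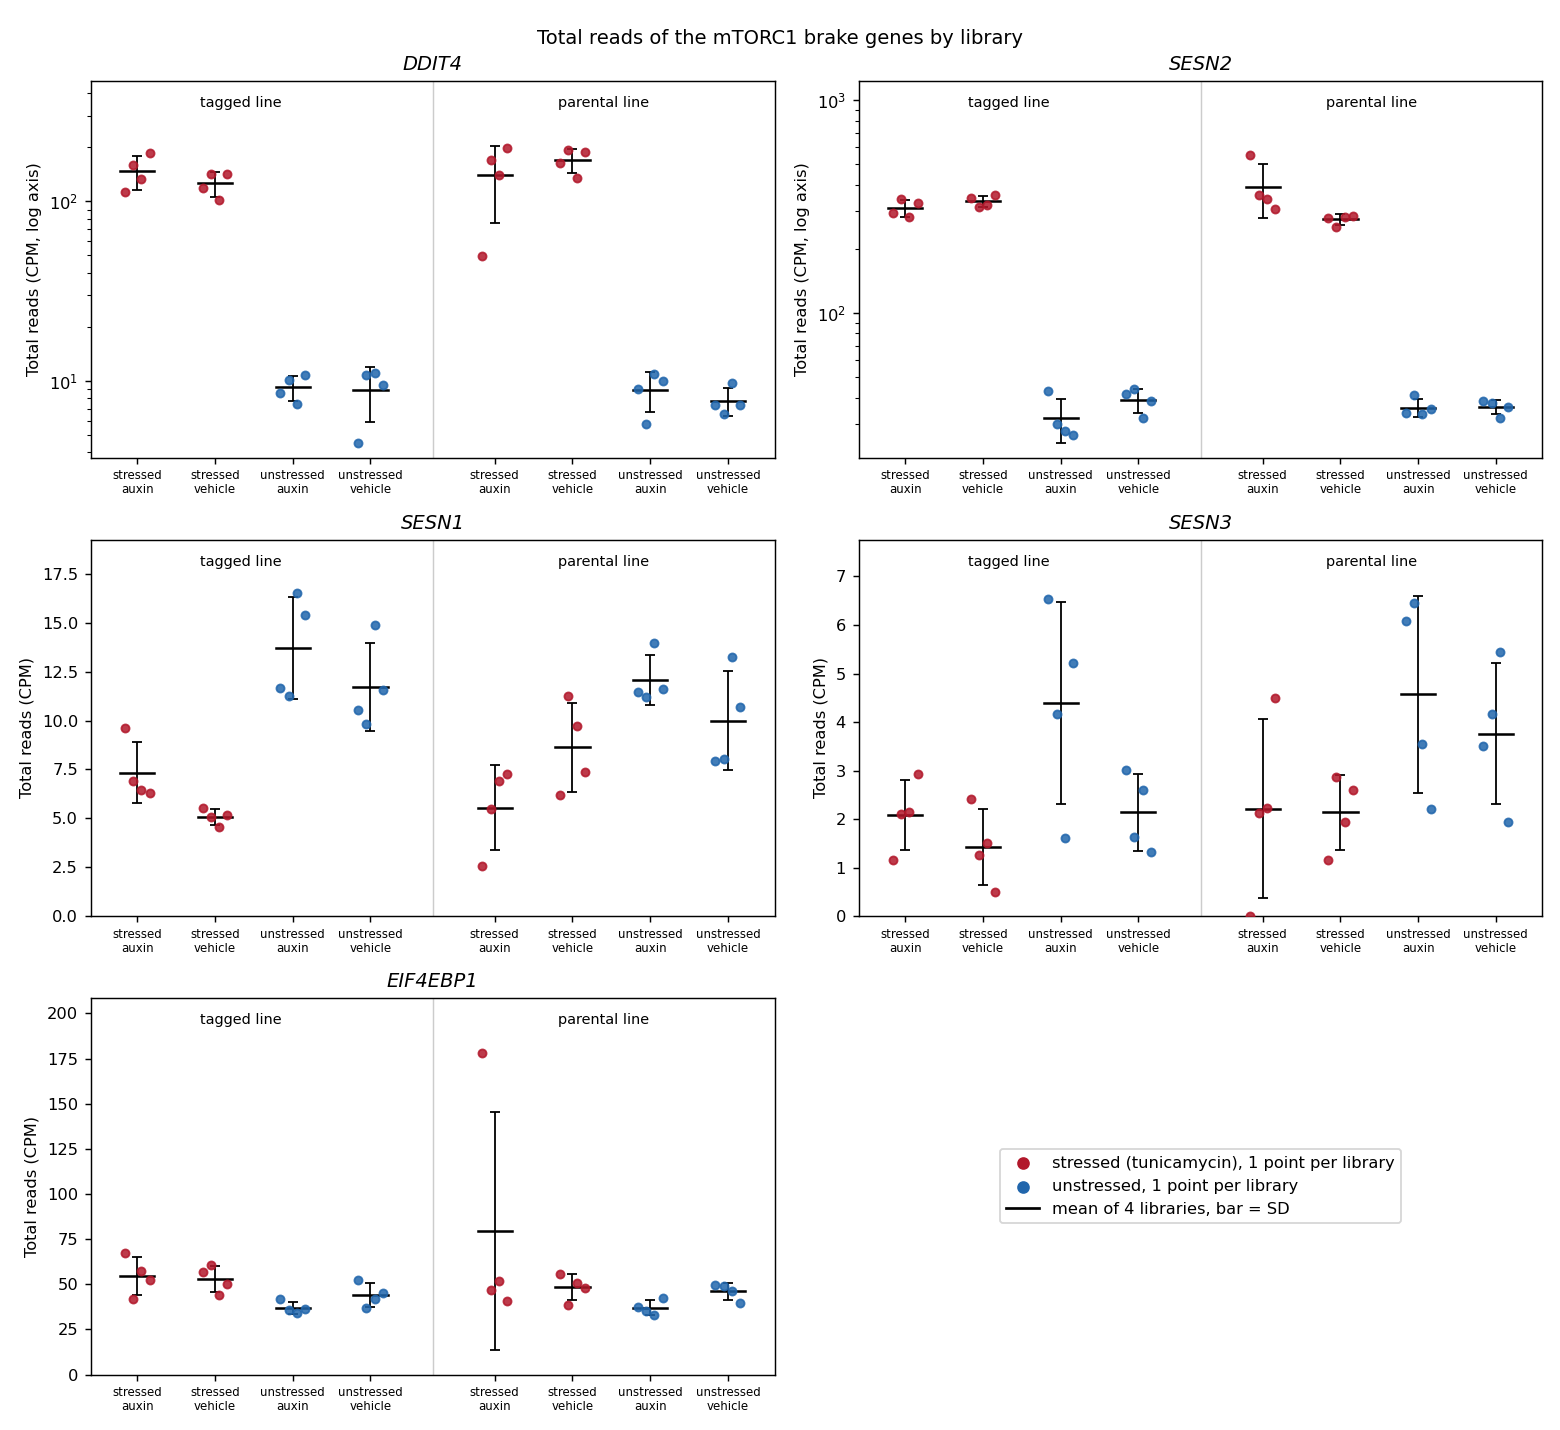
CPM of total reads of the 5 genes in each of the 32 libraries (points) by group, with the mean and SD of 4 libraries. The axes of DDIT4 and SESN2 are logarithmic, the others linear. DDIT4 and SESN2 separate stressed from unstressed libraries in every pair, SESN1 lies lower under stress in 3 of the 4 pairs, and the high EIF4EBP1 point at 178.0 CPM is the smallest library.

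Counted over the 5 genes, 2 rose and 1 fell in tagged cells with auxin, where 3.02% of all 11186 genes tested rose and 1.13% fell. Without the smallest library EIF4EBP1 rose there as well (log2 0.56, edgeR adjusted p 0.00513), where 5.05% of all genes rose. The count was 2 and 1 in tagged cells with vehicle, where 2.92% rose and 1.11% fell. It was 3 and 1 in parental cells with auxin (2 and 1 without the smallest library), where 7.26% rose and 3.19% fell. It was 2 and 0 in parental cells with vehicle, where 7.64% rose and 5.26% fell. For that count of 0 lower, no falling member had an unadjusted p under 0.05, and DESeq2 called the same 2 genes. DDIT4 and SESN2 account for the rising members in all 4 comparisons. EIF4EBP1 joined them in parental cells with auxin only with the smallest library, and in tagged cells with auxin without it.

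**Figure D2:**
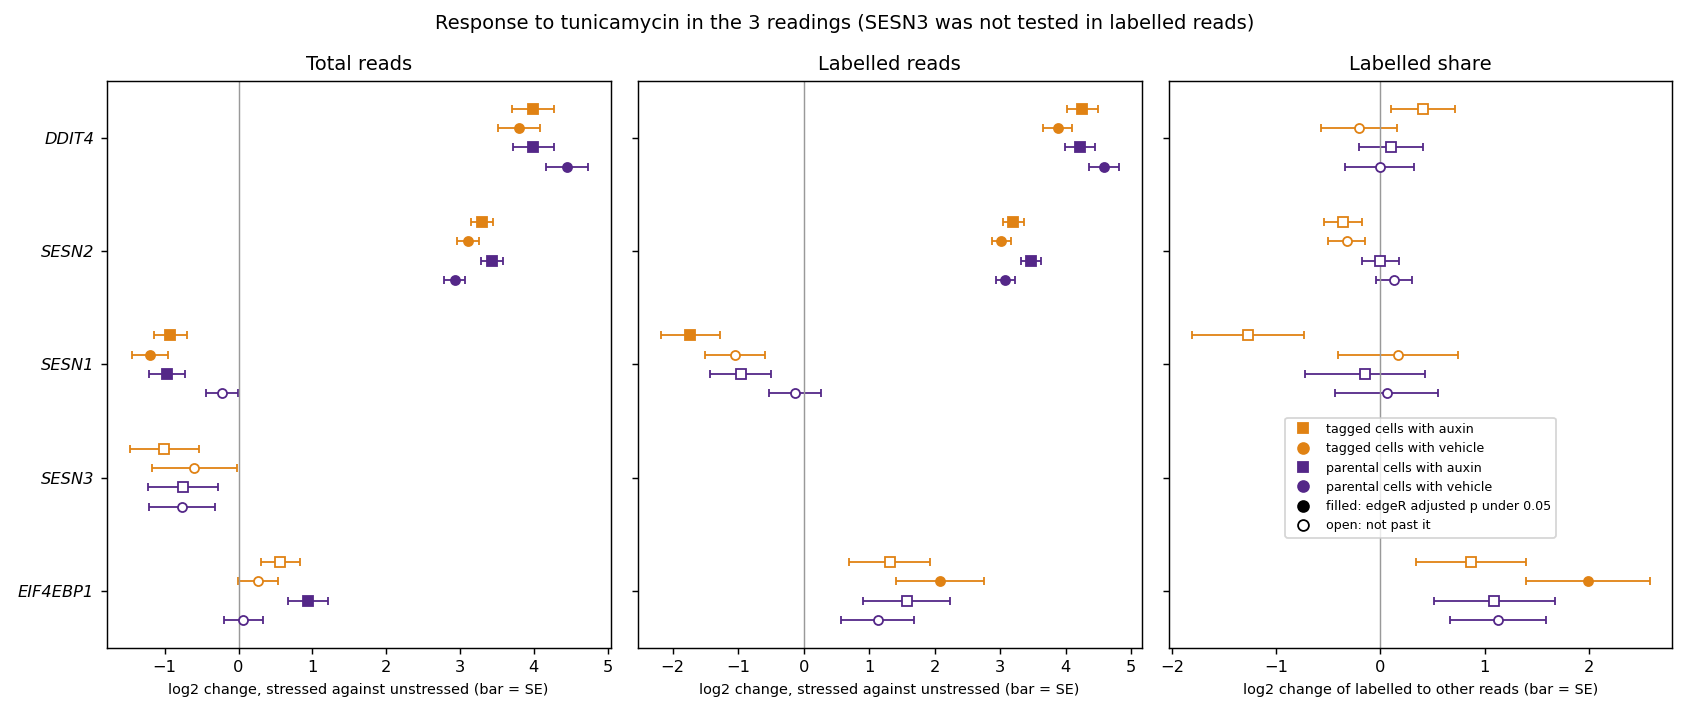
Log2 change with tunicamycin, stressed over unstressed, of total reads, labelled reads and labelled share in the 4 comparisons, with standard errors of the edgeR fit and filled symbols where the adjusted p is under 0.05. DDIT4 and SESN2 lie between 2.93 and 4.58 in total and labelled reads and SESN1 below 0, and in the share EIF4EBP1 has the one filled symbol.

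Labelled reads, scaled among themselves, stood for the newly made RNA. DDIT4 rose in it by 4.25 ± 0.23 in tagged cells with auxin, 3.87 ± 0.23 with vehicle, 4.22 ± 0.23 in parental cells with auxin and 4.58 ± 0.23 with vehicle (log2, edgeR adjusted p at most 7.50e-24). SESN2 rose by 3.20 ± 0.15, 3.02 ± 0.15, 3.46 ± 0.15 and 3.08 ± 0.15 in the same order (edgeR adjusted p at most 1.56e-27). Without the smallest library the parental auxin values were 4.39 ± 0.18 for DDIT4 and 3.40 ± 0.14 for SESN2. Both brakes thus rose in newly made RNA as they did in total reads.

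Labelled SESN1 fell by 1.73 ± 0.45 in tagged cells with auxin (log2 -1.73, edgeR adjusted p 0.00332), on 4, 4, 12 and 5 labelled reads stressed, against 18, 17, 23 and 28 unstressed. The groups did not overlap. The other 3 comparisons gave -1.05 in tagged vehicle-treated, -0.96 in parental auxin-treated and -0.14 in parental vehicle-treated cells, with edgeR adjusted p of 0.140 to 0.851 (parental auxin -0.84 ± 0.45 without the smallest library). Scaled by total reads in place of labelled reads, labelled SESN1 also passed in tagged vehicle-treated cells (-1.27, edgeR adjusted p 0.0474) and in parental auxin-treated cells (-1.26, edgeR adjusted p 0.0389). The largest count of labelled SESN1 reads in any library was 32.

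EIF4EBP1 had 0 to 20 labelled reads per library. In tagged vehicle-treated cells these were 6, 11, 5 and 20 stressed, against 6, 2, 2 and 0 unstressed, a log2 change of 2.08 ± 0.67 (edgeR adjusted p 0.0181). The stressed and unstressed counts overlapped at 5 and 6. The call was lost without replicate 2, 3 or 4 of the unstressed or replicate 4 of the stressed group, at 2.00, 1.97, 1.63 and 1.71 (edgeR adjusted p 0.0564, 0.0621, 0.109 and 0.132). The other comparisons gave 1.31 ± 0.61 in tagged auxin-treated, 1.57 ± 0.66 in parental auxin-treated and 1.13 ± 0.55 in parental vehicle-treated cells, none passing (edgeR adjusted p 0.104 to 0.169; parental auxin 1.53 ± 0.68 without the smallest library). All 4 values were above 0.

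In labelled reads, 2 of the 4 genes tested rose and 1 fell in tagged cells with auxin, where 6.94% of 8980 genes rose and 2.83% fell. In tagged cells with vehicle 3 rose and 0 fell (with 1 member below 0 at an unadjusted p under 0.05, SESN1), where 6.92% rose and 2.48% fell. In parental cells with auxin 2 rose and 0 fell (again SESN1 at an unadjusted p under 0.05), where 7.91% rose and 3.45% fell. In parental cells with vehicle 2 rose and 0 fell, where 10.1% rose and 7.06% fell. Scaled by total reads, 1 member (SESN1) fell in tagged cells with vehicle and in parental cells with auxin. DESeq2 called the same number of genes as edgeR in each of the 4.

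The labelled share, labelled reads among a gene's reads, tells how new the RNA pool is. Pooled over the parental unstressed vehicle-treated libraries, 70.7% of DDIT4 reads were labelled, and 98.9% of 8980 genes had a lower share. SESN2 followed at 48.6% (93.0% of genes lower) and SESN1 at 40.8% (88.3% of genes lower), against 18.8% for the median gene. EIF4EBP1 stood at the other end at 3.10%, with 0.824% of genes lower. How much of so low a share was background could not be told, as no library lacked s4U. Conversions per covered T position, which do not depend on how many T positions a read covers, gave the same order: 4.97% for DDIT4, 3.51% for SESN2, 3.17% for SESN1, 1.53% for the median gene and 0.351% for EIF4EBP1. The transcripts of DDIT4, SESN2 and SESN1 thus lay in the upper part of the range in these cells and that of EIF4EBP1 near its lower end, while SESN3 was not ranked.

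Under stress the share of DDIT4 reads that were labelled averaged 64.05% ± 1.46 (SD, n = 4) in tagged auxin-treated cells, against 62.4% ± 4.21 unstressed. It averaged 70.9% ± 3.57 in tagged vehicle-treated stressed cells, against 77.1% ± 7.47 unstressed. The ranges of stressed and unstressed libraries overlapped. In parental cells the stressed and unstressed averages were 63.02% ± 4.32 and 67.5% ± 8.40 with auxin, and 65.5% ± 2.13 and 73.9% ± 15.2 with vehicle, again with overlap. Unstressed libraries held only 12 to 43 DDIT4 reads, so a single share is loose: 9 of 12 reads gave 75.0%, with a 95% Wilson interval of 46.8% to 91.1% for counting error. SESN2 averaged 43.7% ± 2.99 labelled in tagged auxin-treated stressed cells, against 54.8% ± 5.00 unstressed, a difference of -11.1 points with no overlap (exact two-sided permutation p 0.0286, the smallest that 4 against 4 allow). With vehicle it averaged 43.95% ± 4.34 in stressed and 54.3% ± 6.17 in unstressed tagged cells. Parental cells averaged 41.4% ± 8.70 stressed and 48.7% ± 6.43 unstressed with auxin, and 45.1% ± 3.74 stressed and 48.7% ± 3.52 unstressed with vehicle, and these 3 pairs overlapped. In parental auxin-treated stressed cells DDIT4 averaged 61.8% ± 4.37 and SESN2 45.3% ± 4.62 (SD, n = 3) without the smallest library. Read as conversions per covered T position, SESN2 was lower under stress without overlap in 3 of the 4 pairs, by 1.29 points in tagged cells with auxin, 1.65 with vehicle and 0.899 in parental cells with vehicle (differences -1.29, -1.65 and -0.899, exact permutation p 0.0286 each). DDIT4 was lower without overlap by that reading in tagged cells with vehicle (-1.41 points, exact permutation p 0.0286). Conversion over the whole library was lower under stress as well, with means of 0.751% to 0.887% of covered T positions in the 4 stressed groups, against 0.998% to 1.13% in the 4 unstressed groups. How many of all genes separate without overlap in these uncentred percentages was not counted.

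Relative to the typical gene, whose shift the share test removes, DDIT4 and SESN2 shares did not pass in any stress comparison. The centred log2 changes of DDIT4 were 0.41 ± 0.31 in tagged auxin-treated, -0.20 ± 0.36 in tagged vehicle-treated, 0.10 ± 0.31 in parental auxin-treated and -0.01 ± 0.33 in parental vehicle-treated cells. Those of SESN2 were -0.36 ± 0.18, -0.32 ± 0.18, 0.00 ± 0.17 and 0.13 ± 0.17 in the same order, and the edgeR adjusted p of these 8 values was at least 0.265. The parental auxin values were 0.08 ± 0.30 for DDIT4 and 0.15 ± 0.16 for SESN2 without the smallest library. Labelled and unlabelled reads were both higher under stress. Labelled DDIT4 averaged 94.2 CPM of total reads in tagged stressed auxin-treated cells, against 5.72 CPM unstressed, and unlabelled DDIT4 53.4 CPM, against 3.49 CPM. Labelled SESN2 averaged 136.5 CPM in the same stressed cells, against 17.6 CPM unstressed, and unlabelled SESN2 175.5 CPM, against 14.3 CPM.

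**Figure D3:**
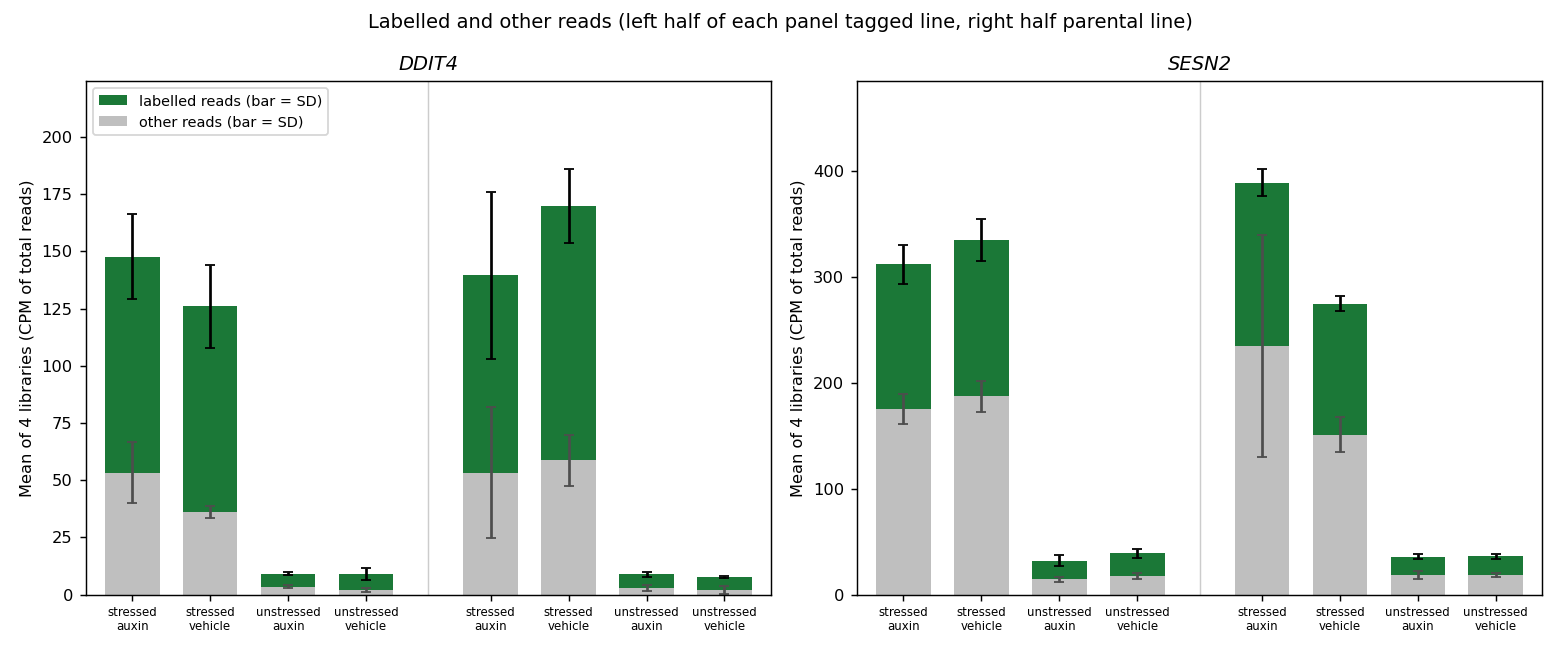
Stacked mean CPM of unlabelled (other, grey) and labelled (green) reads of DDIT4 and SESN2 in each group, each segment with its own SD over 4 libraries. Both kinds of read are higher in every stressed group than in its unstressed counterpart, in tagged auxin-treated cells 94.2 against 5.72 CPM for labelled DDIT4 and 175.5 against 14.3 CPM for unlabelled SESN2.

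EIF4EBP1 was the member whose share rose with stress relative to the typical gene. It averaged 5.66% ± 2.98 labelled in tagged vehicle-treated stressed cells, against 1.91% ± 1.79 unstressed, a centred log2 change of 1.99 ± 0.59 (edgeR adjusted p 0.00936). The libraries overlapped, and in 1 unstressed library 0 of 172 reads were labelled, which allows a share of up to 1.74%. The call was lost without that library, replicate 4 (1.50, edgeR adjusted p 0.0980), and without replicate 4 of the stressed group (1.57, edgeR adjusted p 0.131). The other comparisons gave 0.87 ± 0.53 (edgeR adjusted p 0.362) in tagged auxin-treated, 1.09 ± 0.58 (0.264) in parental auxin-treated and 1.13 ± 0.46 (0.109) in parental vehicle-treated cells. SESN1 had -1.27 ± 0.54 (edgeR adjusted p 0.1497) in tagged auxin-treated cells, where its labelled reads fell, and between -0.15 and 0.17 in the other comparisons. Leaving out the smallest library, the parental auxin values were 1.32 ± 0.59 for EIF4EBP1 (edgeR adjusted p 0.165) and -0.06 ± 0.58 for SESN1.

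The share of 1 of the 4 genes rose in tagged cells with vehicle, against 5.06% of all genes. In the other stress comparisons 0 rose, with 5.06% of all genes in tagged cells with auxin, 5.4% in parental cells with auxin and 4.81% with vehicle. At an unadjusted p under 0.05 stood SESN1, lower, in tagged cells with auxin, none in parental cells with auxin, and EIF4EBP1, higher, with vehicle. limma on the log2 ratio of labelled to other reads called 0 in these 3 comparisons, too.

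**Figure D4:**
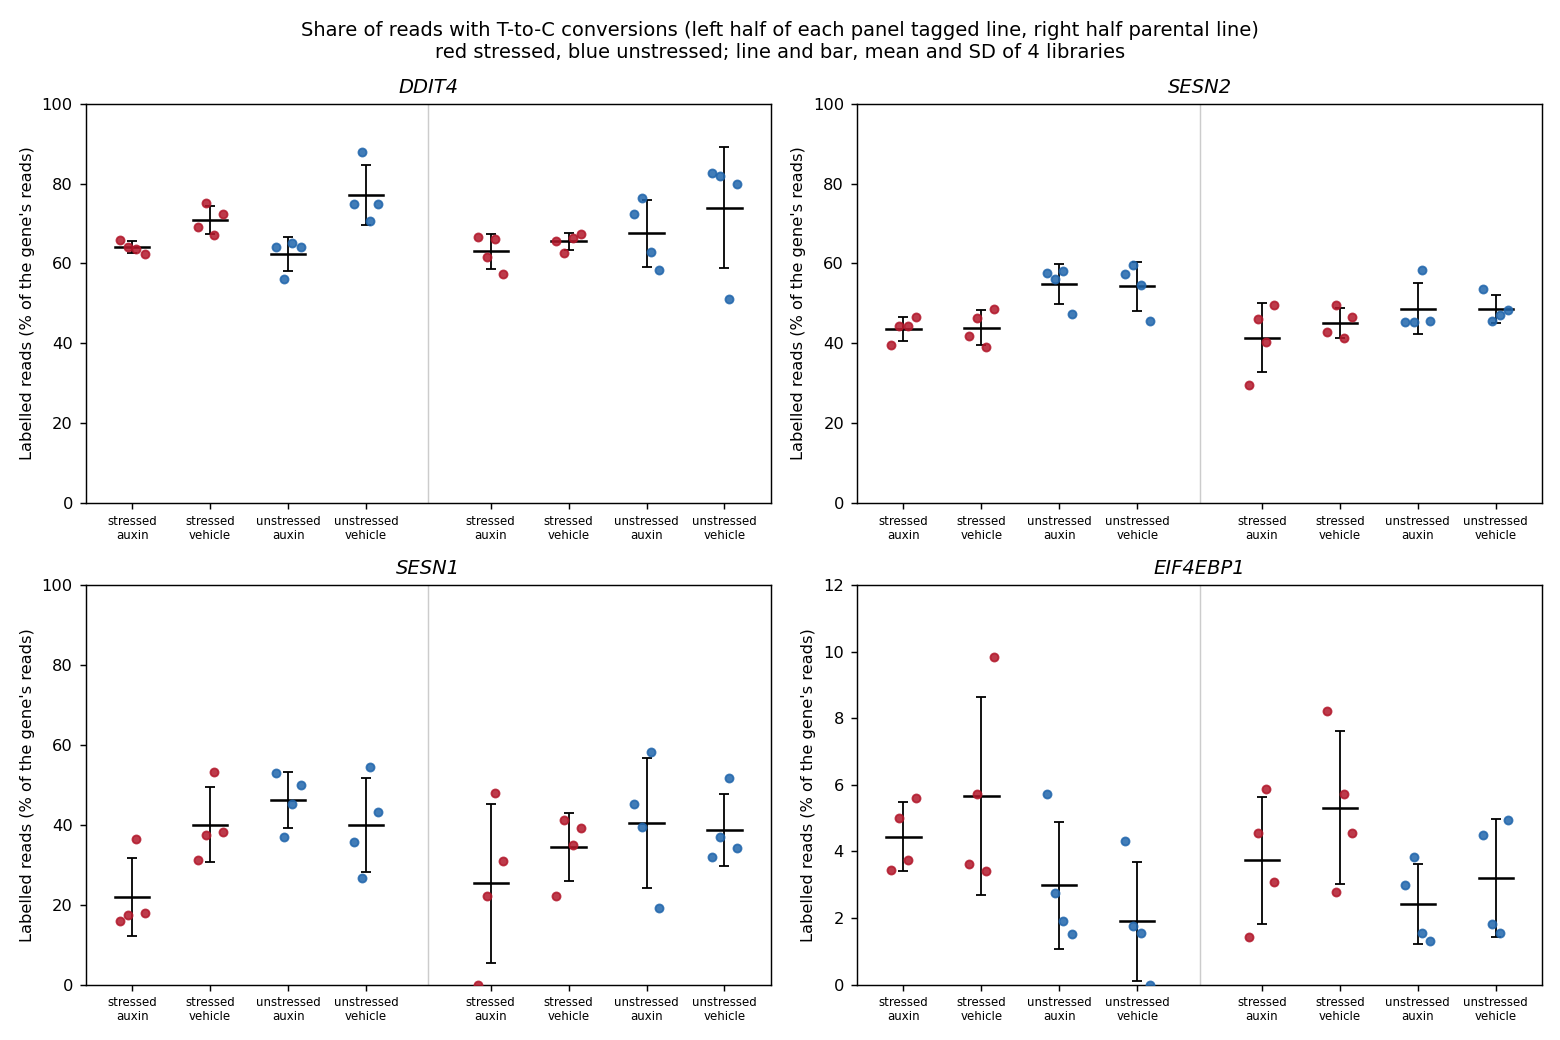
Percentage of each gene's reads that were labelled, in each library (points) with group mean and SD, for DDIT4, SESN2, SESN1 and EIF4EBP1. DDIT4 stands highest with group means of 62.4% to 77.1% and EIF4EBP1 lowest with 1.91% to 5.66%.

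Auxin is the treatment that removes tagged IGF2BP3, and parental cells show what auxin does without the tag. In total reads no member passed in any auxin comparison. The call share over all genes was 0.679% in unstressed tagged cells, 0.0179% in stressed tagged cells, 7.16% in unstressed parental cells and 0.0179% in stressed parental cells. DDIT4 moved by 0.23 ± 0.23 with auxin in stressed tagged cells and 0.04 ± 0.33 in unstressed ones, and by -0.24 ± 0.23 and 0.21 ± 0.33 in stressed and unstressed parental cells (log2, edgeR adjusted p 0.638 to 0.968). The value in stressed parental cells was 0.00 ± 0.16 without the smallest library. With standard errors of 0.23 to 0.33, a small change of DDIT4 was not detectable at this depth.

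SESN2 gave the smallest adjusted p of the auxin comparisons. In stressed parental cells it had 553.1, 356.5, 341.1 and 306.5 CPM with auxin, against 280.4, 252.4, 280.9 and 286.1 CPM with vehicle. Every auxin library was above every vehicle library, and how many of all genes separate in this way was not counted. The log2 change was 0.49 ± 0.14 (edgeR adjusted p 0.183), DESeq2 called it at 0.51 (adjusted p 0.0374), and without the smallest library it was 0.29 ± 0.10 (edgeR adjusted p 0.610). In stressed tagged cells SESN2 moved by -0.10 ± 0.14 (edgeR adjusted p 0.764). The auxin effect differed by -0.59 ± 0.20 (tagged minus parental) and did not pass (edgeR adjusted p 0.166; -0.40 ± 0.14 and 0.213 without the smallest library).

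SESN1 was higher with auxin than with vehicle in every stressed tagged library, at 9.64, 6.92, 6.43 and 6.32 CPM with auxin, against 5.51, 5.07, 4.55 and 5.18 CPM with vehicle. On 15 to 33 reads per library, the change of 0.50 ± 0.25 did not pass (edgeR adjusted p 0.370). How many of all genes separate in this way was not counted. In stressed parental cells it was -0.49 ± 0.24 (edgeR adjusted p 0.309; -0.39 ± 0.25 without the smallest library), and the difference between the lines was 0.99 ± 0.35 (edgeR adjusted p 0.166; 0.87 ± 0.35 and 0.261 without the smallest library). In unstressed cells SESN1 moved by 0.23 ± 0.22 in tagged and 0.26 ± 0.22 in parental cells. SESN3 in unstressed tagged cells had 6.53, 4.17, 1.62 and 5.23 CPM with auxin, against 3.01, 1.63, 2.59 and 1.31 CPM with vehicle, a change of 1.06 ± 0.49 (edgeR adjusted p 0.213). These groups overlapped. EIF4EBP1 moved by -0.26 ± 0.27 in unstressed tagged and -0.31 ± 0.27 in unstressed parental cells, by 0.05 ± 0.26 in stressed tagged cells and by 0.57 ± 0.26 in stressed parental cells (-0.05 ± 0.14 without the smallest library).

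Between tagged and parental cells given vehicle none of the 5 genes passed, with 0.241% of all genes called unstressed and 0.411% stressed. The smallest adjusted p was that of SESN1, at 5.51, 5.07, 4.55 and 5.18 CPM in tagged stressed cells, against 6.19, 11.3, 9.71 and 7.38 CPM in parental stressed cells, with no overlap (-0.76 ± 0.24, edgeR adjusted p 0.200). DDIT4 differed by -0.43 ± 0.23 and SESN2 by 0.29 ± 0.14 in stressed cells (edgeR adjusted p 0.469 and 0.428). The tests of differences between effects called no member either. Over all genes they called 0% for the stress effect between lines, 0% for the stress effect between auxin and vehicle in tagged cells, 0.0179% for the auxin effect between lines in unstressed cells and 0% in stressed cells. In all, 0 of 50 member tests outside the stress comparisons passed by edgeR, 9 had an unadjusted p under 0.05, and DESeq2 called 1. These comparisons share groups with each other and with the stress comparisons.

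In labelled reads 0 of 40 such tests passed by edgeR, with 3 at an unadjusted p under 0.05, 0 by DESeq2 and a lowest edgeR adjusted p of 0.409. Auxin comparisons called 0.2% of all genes in unstressed tagged, 0% in stressed tagged, 0.601% in unstressed parental and 0.0111% in stressed parental cells. The lines differed in 0.0111% of genes unstressed and 0.1% stressed, and the 4 tests of differences between effects called 0% of genes each. The 3 values were SESN2 with auxin in stressed parental cells (0.41 ± 0.13; 0.35 ± 0.12 without the smallest library), its difference between the lines (-0.39 ± 0.19; -0.33 ± 0.16 without it) and the difference of the DDIT4 stress effect between the lines with vehicle (-0.70 ± 0.32).

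As a plain percentage, not centred on the typical gene, the labelled share of DDIT4 was lower with auxin in tagged cells. Unstressed, 64.0%, 56.1%, 65.2% and 64.1% of its reads were labelled with auxin, against 75.0%, 87.9%, 70.6% and 75.0% with vehicle. Stressed, the values were 66.0%, 64.0%, 63.7% and 62.5% with auxin, against 69.1%, 75.1%, 67.1% and 72.5% with vehicle. Neither pair of groups overlapped, and the differences were -14.8 and -6.89 points (exact two-sided permutation p 0.0286 each, the smallest possible). Conversions per covered T position were lower as well, by 2.01 and 0.927 points (differences -2.01 and -0.927, exact permutation p 0.0286 each). In parental cells the auxin differences in labelled share were -6.39 points unstressed (exact permutation p 0.486) and -2.53 points stressed (0.314), with overlap. Unstressed, the overlap rested on replicate 3 of the parental vehicle-treated cells, at 51.2%, against 80.0% to 82.6% in the other libraries of its group. The parental unstressed auxin-treated libraries lay at 58.3% to 76.5%. Conversion over whole tagged libraries was lower with auxin too, at means of 0.998% with auxin, against 1.13% with vehicle unstressed, and 0.751%, against 0.887%, stressed. In parental libraries it was 1.01% with auxin, against 1.13% with vehicle unstressed, and 0.753%, against 0.806%, stressed. The test centred on the typical gene gave -0.93 ± 0.45 in unstressed (edgeR adjusted p 0.636) and -0.32 ± 0.16 in stressed tagged cells (edgeR adjusted p 0.717). Between the lines (tagged minus parental) this auxin effect differed by -0.68 ± 0.62 unstressed and -0.18 ± 0.22 stressed. Neither difference passed (edgeR adjusted p 0.991 and 0.961), and the stressed value was -0.16 ± 0.22 without the smallest library. Of 48 such exact tests on labelled shares of the members, 4 stood at the smallest possible p, and of 48 on conversions per covered T position 11 did. These percentages were not centred on the typical gene. The share of all genes that would stand at that p was not counted, so these counts are no result about the members. Among the 11 was SESN1, lower with auxin in unstressed tagged cells by that reading (-1.34 points) while its labelled share was 6.27 points higher (exact permutation p 0.400).

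For the centred share, 0 of 40 tests outside the stress comparisons passed by edgeR, 3 had an unadjusted p under 0.05, limma called 0 and the lowest edgeR adjusted p was 0.636. All 3 were DDIT4, the 2 auxin values in tagged cells above and the tagged-against-parental value in stressed vehicle-treated cells (0.36 ± 0.15, edgeR adjusted p 0.679). Over all genes the auxin comparisons called 0% in unstressed and 0% in stressed tagged cells, and 0.212% in unstressed and 0% in stressed parental cells. The lines differed in 0.0111% of genes unstressed and 0.0111% stressed, and each test of a difference between effects called 0%.

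Other genes of the mTORC1 pathway, and of the pathways that feed it, were counted in lists, each to be read against the share of all genes that passed. These shares were 3.02% rising and 1.13% falling in tagged cells with auxin, 2.92% and 1.11% with vehicle, 7.26% and 3.19% in parental cells with auxin, and 7.64% and 5.26% with vehicle. Without the smallest library they were 5.05% rising and 3.07% falling, 5.08% and 2.64%, 5.57% and 3.66%, and 15.9% and 14.3% in the same order.

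Of 11 tested genes of the mTORC1 complex, Rheb, TSC and AKT, 0 passed in tagged cells by edgeR (at an unadjusted p under 0.05 stood 0 with auxin and 1 with vehicle), 2 rose in parental cells with auxin and 1 with vehicle. When the smallest library was left out, 0 passed in parental cells with auxin (and 0 in tagged cells), and 2 rose and 3 fell with vehicle. The one that rose with vehicle was AKT1, a kinase upstream of TSC, at 1.31 ± 0.45 (edgeR adjusted p 0.0491), against -0.80 ± 0.43 in parental cells with auxin, so its sign differed. The unstressed parental baselines differed as well, with AKT1 higher with auxin by 2.00 ± 0.44 on the log2 scale (edgeR adjusted p 0.0113). Its centred labelled share was lower with auxin there (-1.75 ± 0.35, edgeR adjusted p 0.00393). The cause was not tested. The list's median log2 change was -0.07 in tagged cells with auxin, 0.05 with vehicle, 0.10 in parental cells with auxin and -0.23 with vehicle. Over all genes tested the medians lay between -0.01 and 0.00.

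Of 25 tested genes of lysosomal nutrient sensing (Rag GTPases, Ragulator, GATOR, KICSTOR and partners), 1 fell in tagged cells with auxin, 1 with vehicle and 1 in parental cells with auxin, where 1 rose, and 3 fell in parental cells with vehicle. With that library left out, 1 rose and 1 fell in the first 3 comparisons each, and 2 rose and 6 fell in parental cells with vehicle. The gene that fell each time was FNIP2, a partner of folliculin on the Rag GTPases. It changed by -0.54 ± 0.15 in tagged cells with auxin and -0.71 ± 0.15 in parental cells with auxin (edgeR adjusted p 0.0335 and 0.00244). With vehicle it changed by -1.005 ± 0.15 in tagged and -1.05 ± 0.15 in parental cells (edgeR adjusted p 3.09e-05 and 6.06e-06). RRAGC, a Rag GTPase, and LAMTOR5, a Ragulator subunit, fell in parental cells with vehicle by 0.40 and 0.31 (log2 -0.40 and -0.31, edgeR adjusted p 0.0168 and 0.0221). Medians of this list lay between -0.08 and 0.02.

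Of 9 AMPK genes, 0 passed in tagged cells by edgeR (1 with auxin and 0 with vehicle at an unadjusted p under 0.05), 1 rose in parental cells with auxin, and in parental cells with vehicle PRKAB1, an AMPK subunit, rose (0.71 ± 0.23, edgeR adjusted p 0.0372) and STK11, the upstream kinase LKB1, fell (-0.43 ± 0.14, edgeR adjusted p 0.0396). Leaving it out, 1 AMPK gene rose in tagged cells with auxin, 0 passed in parental cells with auxin, and 2 rose and 1 fell with vehicle. Of 12 genes of 4E-BP partners and cap binding, 1 fell in each tagged comparison and 2 in each parental one (without the smallest library 3 with auxin and 2 with vehicle in either line, with 1 rising in tagged and 2 in parental cells with vehicle). EIF4E, the cap-binding protein that 4E-BP1 holds, fell in parental cells with vehicle (-0.25 ± 0.08, edgeR adjusted p 0.0440) and with auxin (-0.28 ± 0.08, edgeR adjusted p 0.0285). EIF4E2, a related cap-binding protein, fell in parental cells with vehicle (-0.72 ± 0.21, edgeR adjusted p 0.0209). EIF4EBP2, the gene of the sister brake 4E-BP2, chosen after its values were seen, fell by 0.36 in tagged cells with auxin, 0.46 with vehicle and 0.42 in parental cells with auxin (log2 -0.36, -0.46 and -0.42, edgeR adjusted p 0.0458, 0.00708 and 0.00911). In parental cells with vehicle it stood at -0.15 (edgeR adjusted p 0.337). Of 13 other mTORC1 substrates and outputs, 0 passed in tagged cells by edgeR, though 4 with auxin and 4 with vehicle were higher at an unadjusted p under 0.05, while 3 rose in parental cells with auxin and 2 with vehicle. Of these, 2 rose in tagged cells with auxin, 3 with vehicle, 4 in parental cells with auxin and 3 with vehicle, where 1 fell, without the smallest library. The 2 in parental cells with vehicle were ATG13, an autophagy starter (0.75 ± 0.16, edgeR adjusted p 0.00238), and GRB10, an insulin signalling brake (0.82 ± 0.20, edgeR adjusted p 0.00735). DESeq2 was run for the 5 genes and not read for these lists, and no list was tested as a set.

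The targets of ATF4 and CHOP, a list that leaves out the 5 genes, rose in most members: 14 of 16 in tagged cells with auxin and with vehicle, 15 in parental cells with auxin and 14 with vehicle (15 with vehicle without the smallest library), far above the shares of all genes. By edgeR 0 fell, and 0 were lower at an unadjusted p under 0.05. Their median log2 changes were 1.63, 1.50, 1.47 and 1.89 in that order. The largest in parental vehicle-treated cells were DDIT3 at 5.10 ± 0.18 and CHAC1, a glutathione-degrading enzyme, at 5.06 ± 0.31, then STC2 at 2.99 ± 0.17 and TRIB3, a pseudokinase that binds AKT, at 2.92 ± 0.19. DDIT4 and SESN2 stood inside this range. The list was chosen with earlier results of these data known, so its counts are no independent test. Of 17 p53 targets, 2 rose in tagged cells with auxin, 2 with vehicle, 2 in parental cells with auxin and 4 with vehicle. By edgeR 0 fell, with 1 to 3 of them lower at an unadjusted p under 0.05. Without the smallest library 4 rose and 1 fell in tagged cells with auxin, 3 and 1 with vehicle, 4 and 0 in parental cells with auxin, and 4 and 4 with vehicle. The 4 that rose in parental cells with vehicle were GDF15 (2.04 ± 0.16), BBC3, which encodes PUMA (1.49 ± 0.21), TNFRSF10B (1.34 ± 0.22) and PLK3 (0.75 ± 0.20), and the list's median lay between -0.05 and 0.22. SESN1 is known as a p53 target too.

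By the likeness of their 8 group means of log2 CPM, each centred on its own mean, the genes nearest to DDIT4 were HERPUD1, an ER-associated degradation protein (root-mean-square difference 0.327), DNAJB9, an ER chaperone partner (0.366), and LURAP1L (0.420), where DDIT4 itself spans 4.41. SESN2 (span 3.59) was nearest to FICD, an enzyme that modifies the ER chaperone BiP (0.203), ADM2 (0.332) and HSPA5, which encodes BiP (0.341). SESN1 (span 1.37) was nearest to HPS6 (0.126), INSL3 (0.142) and ZFP36L2 (0.145), and SESN3 (span 1.54) had HOXC13 (0.185) and PDGFA (0.201) among its nearest. The span of EIF4EBP1 was 0.812, under the minimum of 1 used for this ranking. The likeness uses 8 groups and the 11186 genes tested, and rests on the same libraries for all genes.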

How the data were processed

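SLAM-seq counts of 32 HCT116 libraries were used as deposited. Per the file headers, each file holds, per transcript, a count of reads and of those with T-to-C conversions, how many T positions the reads covered and how many of these were converted, plus region length and T content. The layout is that of Slamdunk tables, the submitters' processing notes name build hg38, and the minimum of conversions for a labelled read and the annotation release are not given in the sources used here. QuantSeq reads start near the 3′ end, so reads near a transcript's end stand for it. Transcripts were matched to symbols with a RefSeq table (GRCh38.p14), and rows without a symbol (36.9% to 43.5% of counts) stayed out of library sizes and tests.

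Total and labelled reads were tested with edgeR 4.0.16 (R 4.3.3): TMM scaling, filterByExpr, 1 coefficient per group over all 32 libraries, the robust quasi-likelihood test and Benjamini-Hochberg adjustment over all genes of a comparison, threshold 0.05. The labelled share was tested with labelled and other reads as paired columns, a term per library and each kind scaled by itself. The tests were tried on simulated counts first. DESeq2 1.42.0 and limma 3.58.1 served as alternatives. Single percentages were compared with exact permutation tests. Whether groups overlapped was read for the 5 genes only, not for all genes. Intervals and floors of 3 counts cover counting error only. No 2 replicates agreed within sampling noise. Named besides the 5 genes are, per pathway list, the genes with the largest changes among those passing in parental vehicle-treated cells, and the 3 genes nearest in pattern, of which 1 is not reported here. The genes and the pathway lists were chosen with earlier results of these data known.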

Additional observations from a re-analysis of the deposited data

Results flagged for a closer look

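In 104 groups of 4 libraries tested over the members' CPM, labelled percentages and conversion percentages, 9 held a library far from its 3 mates, where chance gives about 1 in 20. For DDIT4, 51.2% (21 of 41 reads, 95% Wilson interval 36.5% to 65.7%) were labelled in replicate 3 of the parental unstressed vehicle-treated cells, against 80.0% to 82.6% in the other libraries. In the same library 2.73% of covered T positions of DDIT4 were converted, against 6.06% to 6.18%. Replicate 2 of the tagged unstressed auxin-treated cells had 56.1% of DDIT4 reads labelled (95% Wilson interval 41.0% to 70.1%), against 64.0% to 65.2%.

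For the sestrins, SESN2 stood at 252.4 CPM in replicate 2 of the parental stressed vehicle-treated cells, against 280.4 to 286.1 CPM, and at 58.3% labelled in replicate 3 of the parental unstressed auxin-treated cells, against 45.3% to 45.7%. SESN1 stood at 14.0 CPM in that same replicate 3, against 11.2 to 11.6 CPM, and at 36.4% labelled (12 of 33 reads) in replicate 3 of the tagged stressed auxin-treated cells, against 16.0% to 17.9%.

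EIF4EBP1 stood at 178.0 CPM in replicate 1 of the parental stressed auxin-treated cells, the smallest library, against 40.8 to 51.9 CPM. Its conversion was 0.504% in replicate 1 of the tagged unstressed auxin-treated cells, against 0.213% to 0.229%.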

How the results depend on the processing

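Under the alternatives (other scaling, no filter, DESeq2 or limma, the longest counted region, only the compared libraries, covered T positions per read as a covariate, the replicate block, and each library left out), 3064 of 3089 member values kept their call, 14 lost it, 11 gained it and 0 called values turned sign, while 157 uncalled values did. Of 717 counts of members called, 708 stayed, where a shift between 2 and 3 or between 3 and 4 was also taken as staying. The stress rises of DDIT4 and SESN2 in total and labelled reads passed in 244 of 244 fits (lowest log2 change 2.80, highest adjusted p 0.00350). The fall of SESN1 passed in 16 of 16 fits in tagged cells with vehicle, 16 of 16 with auxin (highest adjusted p 0.0498) and 14 of 15 in parental cells with auxin. EIF4EBP1 in total reads passed in 9 of 15 fits in parental cells with auxin (log2 0.33 to 1.17), in labelled reads in 10 of 14 and in share in 11 of 14 fits in tagged cells with vehicle. With only the compared libraries, stress in parental cells with auxin called 2 members in place of 4, and tagged against parental stressed cells 1 in place of 0 (SESN2, 0.29, adjusted p 0.0426). DESeq2 called 1 in place of 0 for auxin in stressed parental cells (SESN2). limma on conversions per covered T called 0 in place of 1 for the share with stress in tagged cells with vehicle (EIF4EBP1, 2.09, adjusted p 0.0516). Without centring, the share with stress in tagged cells with auxin called 2 in place of 0 (SESN1 at -1.54 and SESN2 at -0.65, adjusted p 0.0409 and 0.0333). Leaving out 1 library at a time gave 0 to 1 calls for auxin in stressed parental cells and for the auxin effect between lines in stressed cells (SESN2, 0.58 and -0.69, each without replicate 4 of the parental stressed auxin-treated cells), and 0 to 1 for the share with stress in tagged cells with vehicle. The cause of these changes was not tested. With the replicate number as a block the counts were unchanged (2 for stress in parental cells with vehicle, 4 with auxin, 3 in tagged cells with vehicle), and no member call changed. The labels do not tie equal replicate numbers to each other. Same-number deviations correlated at -0.636 to 0.709 over 28 pairs of groups, 0 of which had every correlation over 0.1. Of 32 libraries, 12 correlated best with their own number. These values cannot exclude that some libraries of equal number were handled together. Calls over all genes moved more: stress in parental cells called 1169 genes with auxin (119 with only the compared libraries, up to 1922 without 1 library) and 1443 with vehicle (710 to 3392), and in tagged cells 464 with auxin and 451 with vehicle (up to 1070 and 1024 with T positions as covariate). Auxin called 801 genes in unstressed parental cells (43 to 2800), 76 in unstressed tagged cells (2 to 2084) 2 in stressed tagged cells (0 to 1303) and 2 in stressed parental cells (0 with only the compared libraries, 257 by DESeq2, up to 828 without 1 library). The auxin effect between lines in stressed cells called 0 (146 by DESeq2, up to 1047 without 1 library). The 0 to 63 reads of SESN1 and SESN3 and 0 to 20 labelled reads of EIF4EBP1 per library limit what could be seen of them.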
